A study of Mus musculus with 2 samples.

Results

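Developmental regulators outside the Hox clusters were examined as a set of 52 mouse genes, which are transcription factors and Wnt ligands that pattern the embryo. The genes were taken by name from 12 groups (Pax, sine oculis homeobox, Lhx, Dlx, a mixed group of En, Otx, Gsc and Barhl, Nkx, the basic helix-loop-helix genes Sim, Neurog and Olig, Foxa and Gata, Sox, Tbx, Wnt and Irx). No peak value enters this choice, but the names were listed with earlier results of these data known. All 52 were found in the GENCODE vM21 annotation of the mm10 genome, among 21938 protein-coding genes. A peak, which is a stretch of genome where transposase insertions pile up above their surroundings, was counted at a promoter when it lay within 1 kb of any annotated transcription start site (TSS) of the gene. It was counted in the gene's region when it lay in the gene body or within 10 kb of either end.

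The peaks came from scFFPE-ATAC, a single-cell assay of chromatin accessibility for nuclei recovered from formalin-fixed, paraffin-embedded (FFPE) tissue. The series held 2 libraries of spleen from 8-week-old C57BL/6J mice, and both sexes were used in the study, but the animal behind each library was not given. The first library was prepared without density gradient centrifugation, the step that separates nuclei from tissue debris. The second was made in a 50 µL tagmentation reaction in place of the study's standard volume. No allele, transgene or drug was involved, and both tissues were fixed in formalin and embedded in paraffin. The protocol given for both libraries describes a reaction of 100 µL in all, whereas the label of the second gives 50 µL. The sources did not state for the second alone whether its nuclei passed the gradient. Libraries made with the gradient and the standard volume were not analysed here.

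There was 1 library per condition, so no difference between the libraries could be tested, and the peaks were those of a whole library, summed over all its cells. The list without density gradient centrifugation held 25343 peaks over 8.81 Mb, with a median fold enrichment of 5.24. The 50 µL list held 89382 peaks over 38.0 Mb, with a median of 3.29. Read and cell numbers are unknown, and list length is the only sign of depth here, so a gene without a peak had none detectable at that depth. Library quality is a further limit. For mouse spleen nuclei without the gradient, the paper reports weaker read enrichment at TSS, more duplicate reads and a smaller share of reads in peaks. Cell types could not be clearly separated in that condition. Intervals below are exact (Clopper-Pearson) 95% binomial intervals over genes, which cover counting error only. Of defining genes of spleen lymphocytes, all 6 B cell markers had a promoter peak in the 50 µL list and 3 of 6 in the other. For T cell markers these counts were 5 of 6 and 3 of 6. Among all protein-coding genes 56.6% had one in the 50 µL list and 43.7% in the other. The 3 of 6 (50%, interval 11.8 to 88.2%) was thus near the share of all genes. Of 6 red pulp macrophage markers, 5 had one in the 50 µL list and 1 in the other. None of 6 neuron markers had a promoter peak in either list, 1 of 6 pancreas markers (Cela1) did in both, and 2 of 6 markers of stroma and mesothelium did in the 50 µL list (Col1a1 and Pdgfra) against 1 in the other (Col1a1). The part of each cell type in the peaks described below was not tested, and fewer cells of a type cannot be told apart from less accessible DNA per cell.

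Promoters rich in CpG dinucleotides, called CpG islands, usually stay unmethylated and are accessible in most cells when the gene is a housekeeping gene. CpG islands of developmental regulators are the classical targets of Polycomb complexes, which deposit the repressive histone mark H3K27me3 and keep these genes silent outside the tissue in which they act. Most genes of the set act in the nervous system, sense organs, endoderm, heart, limb or skeleton, and none is a defining gene of mature lymphocytes.

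Of the 52 genes, 51 had a CpG island promoter, defined as a 500 bp window within 1 kb of a TSS with a GC content above 55% and a ratio of observed to expected CpG above 0.75. The exception was Wnt1, a signalling ligand of the midbrain and neural crest, whose promoter met only a looser definition (200 bp, 50% and 0.6). Sequences at promoter peaks of the set are shown first, followed by promoters of genes without a peak. The 4 windows below span 100 bp on each side of the summit of 4 of the 5 most significant promoter peaks of the set in the 50 µL list. They are written 5′ to 3′ on the strand of the gene in mm10 (GRCm38), with CpG dinucleotides in capitals: Lhx2 at chr2:38351078-38351278 (plus strand), Barhl1 at chr2:28916272-28916472 (minus), Sim1 at chr10:50894634-50894834 (plus) and Dlx1 at chr2:71529744-71529944 (plus).
Lhx2: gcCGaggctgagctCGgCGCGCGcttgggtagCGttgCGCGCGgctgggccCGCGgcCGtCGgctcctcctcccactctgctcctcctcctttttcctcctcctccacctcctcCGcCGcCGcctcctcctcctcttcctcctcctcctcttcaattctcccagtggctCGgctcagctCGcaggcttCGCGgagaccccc
Barhl1: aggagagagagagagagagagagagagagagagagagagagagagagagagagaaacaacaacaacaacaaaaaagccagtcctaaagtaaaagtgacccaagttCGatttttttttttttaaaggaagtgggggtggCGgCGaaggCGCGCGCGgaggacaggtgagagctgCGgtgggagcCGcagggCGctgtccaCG
Sim1: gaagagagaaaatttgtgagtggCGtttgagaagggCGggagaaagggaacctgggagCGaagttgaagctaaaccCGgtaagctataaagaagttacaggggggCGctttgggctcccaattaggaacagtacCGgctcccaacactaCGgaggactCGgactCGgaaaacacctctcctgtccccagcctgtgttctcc
Dlx1: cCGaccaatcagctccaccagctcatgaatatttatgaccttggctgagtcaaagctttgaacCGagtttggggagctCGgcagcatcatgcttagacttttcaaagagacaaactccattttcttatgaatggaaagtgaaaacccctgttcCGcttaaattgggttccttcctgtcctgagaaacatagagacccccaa

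The number of CpG in these windows was 20 in Lhx2, 11 in Barhl1, 9 in Sim1 and 4 in Dlx1. The Lhx2 window held a run of pyrimidine triplets between its CpG-rich stretches, and the Barhl1 window opened with a run of AG repeats. RefSeq masks 55.7% of the Barhl1 window and 41.8% of the Lhx2 window as repeats, and at least 50% was masked in 4.19% of the 15859 promoter peaks of all genes with a CpG island promoter. The Sim1 window was masked by 6.97% and the Dlx1 window by 0%.

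For contrast, the RefSeq promoters (GRCm38, 250 bases before to 50 after the start) of Six2, at chr17:85688205-85688504 on the minus strand, and Barhl2, at chr5:106458117-106458416 on the minus strand, are shown with CpG in capitals. These had the most CpG in the 2 kb around the 5′-most TSS among genes of the set with no peak in either list and with a RefSeq entry, which 37 of the 52 genes had.
Six2: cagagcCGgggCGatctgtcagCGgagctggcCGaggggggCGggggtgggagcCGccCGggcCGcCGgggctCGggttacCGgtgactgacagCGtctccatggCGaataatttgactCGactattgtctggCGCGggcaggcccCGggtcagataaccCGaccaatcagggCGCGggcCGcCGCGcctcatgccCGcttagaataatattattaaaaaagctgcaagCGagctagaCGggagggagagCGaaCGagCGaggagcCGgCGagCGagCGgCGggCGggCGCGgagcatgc
Barhl2: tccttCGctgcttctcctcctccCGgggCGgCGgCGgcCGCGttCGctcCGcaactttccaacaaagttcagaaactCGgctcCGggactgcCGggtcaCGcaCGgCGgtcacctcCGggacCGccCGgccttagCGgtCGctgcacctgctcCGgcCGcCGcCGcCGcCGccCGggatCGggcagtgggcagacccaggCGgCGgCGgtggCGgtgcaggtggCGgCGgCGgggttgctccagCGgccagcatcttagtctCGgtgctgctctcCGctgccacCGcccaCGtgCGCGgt

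Six2, which maintains nephron progenitors, had 37 CpG in these 300 bases and 196 in the 2 kb around its 5′-most TSS. Barhl2, a homeobox gene of retina and spinal cord, had 42 and 188. Neither had a peak in its region: the nearest peak to a Six2 TSS lay 292377 bp away without density gradient centrifugation and 54190 bp away in the 50 µL list. For Barhl2 these distances were 116545 and 115368 bp. These values of 196 and 188 were also the highest of the whole set, with or without a peak. Six2 and Barhl2 were picked among genes without a peak, so their lack of a peak was fixed by the choice. This pair therefore cannot show whether CpG content goes with the absence of a peak.

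None of the 52 genes had a promoter peak in the list without density gradient centrifugation (0%, interval 0 to 6.85%). In the same list 43.7% of all protein-coding genes and 67.9% of the 11680 genes with a CpG island promoter had one. In the 50 µL list 8 of the 52 had a promoter peak (15.4%, interval 6.88 to 28.1%), beside 56.6% of all protein-coding genes and 82.0% of those with a CpG island promoter. The 8 genes were Lhx2, Barhl1, Pax6, Sim1, Dlx1, Tbx3, Gata6 and Otx1, and all 8 had a CpG island promoter. The share of the set lay below that of genes without a CpG island promoter too, which was 16.1% in the first list and 27.6% in the 50 µL list, although the interval of the 50 µL share reached the latter. When the 50 µL list was cut to its 25343 most significant peaks, the length of the other list, 4 of the 52 genes kept a promoter peak (7.69%, interval 2.14 to 18.5%), against 69.7% of genes with a CpG island promoter. Those 4 were Lhx2, Barhl1, Pax6 and Sim1.

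**Figure D1:**
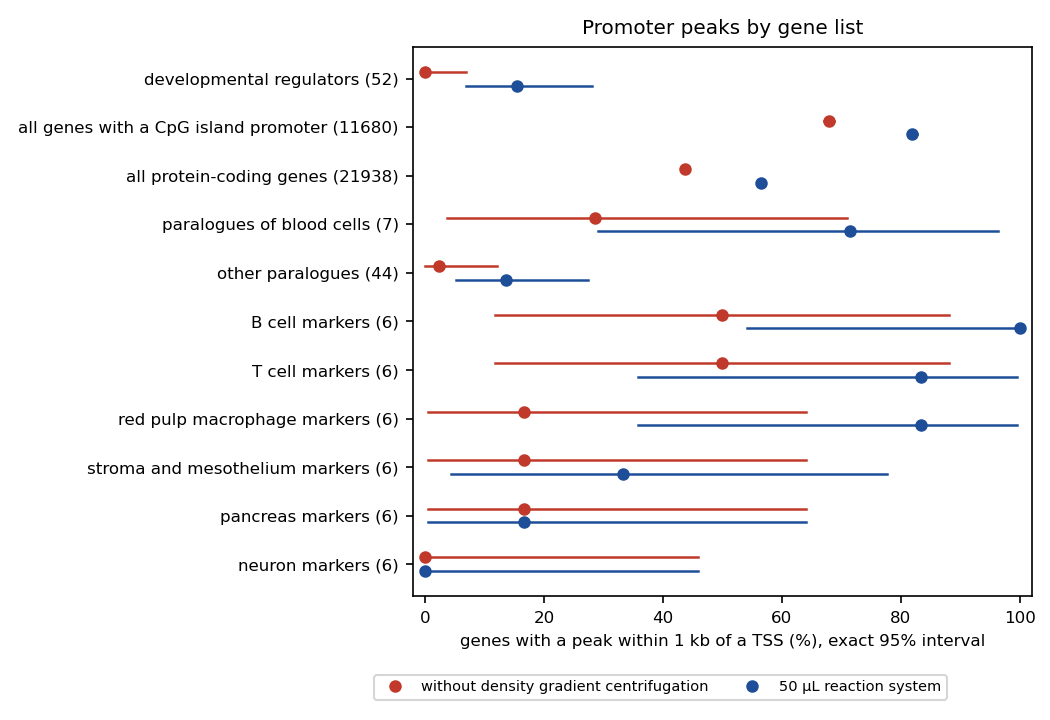
Share of genes that had a promoter peak (horizontal axis, percent) in each gene list, with red for the library prepared without density gradient centrifugation and blue for the 50 µL library. Points are shares, lines are exact 95% binomial intervals over genes, and the number of genes stands in parentheses. The developmental regulators sit at 0% and 15.4%, and all genes with a CpG island promoter at 67.9% and 82.0%.

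Lhx2, a LIM homeobox gene of forebrain, eye and hair follicle, had the most significant of the 8 promoter peaks, at chr2:38350830-38351374. Its fold enrichment over the local background was 5.97, and its significance as −log10 q was 41.7. That enrichment was at or above that of 92.8% of the promoter peaks of genes with a CpG island promoter. The summit lay in a UTR exon 419 bp downstream of an internal protein-coding TSS, 11897 bp from the 5′-most TSS of the gene, in an island of 1628 bp. A further Lhx2 peak at chr2:38368822-38369261 had a higher fold enrichment still (7.40, −log10 q 43.8) and lay in a coding exon. Lhx2 thus had strong peaks both at a TSS and away from one.

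Barhl1, a homeobox gene of cerebellar granule neurons and inner ear hair cells, had its promoter peak at chr2:28916228-28916504 with a fold enrichment of 5.87 and −log10 q of 28.7. The summit was 40 bp from an internal TSS and 296 bp from the 5′-most TSS, in a UTR exon. Pax6, the master regulator of eye development that is also used in forebrain and pancreatic islets, had a peak with a fold enrichment of 5.45 and −log10 q of 24.9. This peak was at an internal promoter, 6679 bp from the 5′-most of the 24 TSS annotated for the gene, with its summit 146 bp downstream of the nearest TSS in a UTR exon. Sim1, a basic helix-loop-helix gene of the hypothalamus, was the gene whose peak sat closest to its 5′-most TSS: the summit of chr10:50894586-50894864 was 20 bp upstream (4.58, −log10 q 22.6). The Pax6 and Lhx2 peaks were thus far from the 5′ end of the gene, and the Barhl1 and Sim1 peaks were at it.

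Dlx1, which specifies forebrain interneurons, had a peak at chr2:71529542-71530020 (4.08, −log10 q 13.7). Its summit was 9 bp upstream of an internal TSS that is annotated only for a transcript subject to nonsense-mediated decay. With TSS of protein-coding transcripts alone, all 8 genes kept a promoter peak, so such a Dlx1 TSS also lay within 1 kb of this peak. Tbx3, a T-box gene of limb, mammary gland and heart conduction tissue, had a weaker peak (3.23, −log10 q 7.86), 279 bp downstream of its 5′-most TSS. A TSS of the antisense gene Tbx3os1 lay within 1 kb of this peak. Gata6, a zinc finger gene of endoderm, heart and resident peritoneal macrophages, had one at chr18:11052388-11052819 (2.89, −log10 q 5.84), within 1 kb of a TSS of the non-coding gene 1010001N08Rik. Otx1, a homeobox gene of the cerebral cortex, had the weakest, in an intron at chr11:22001570-22001796 (2.64, −log10 q 4.46). For Tbx3 and Gata6, the peak cannot be told apart from a promoter peak of the neighbouring transcript.

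The 8 peaks spanned a wide range, from the 19.6th percentile of fold enrichment (Otx1) to the 92.8th (Lhx2) among promoter peaks of genes with a CpG island promoter. Their median fold enrichment was 4.33, against 3.64 over those 15859 peaks. Their median −log10 q was 18.2 against 24.4, and they were narrower, with a median width of 333 bp against 544 bp. All 8 summits lay in a CpG island, and none of the 8 peaks overlapped a peak of the list without density gradient centrifugation. In 4 of the 8 genes (Barhl1, Sim1, Tbx3 and Gata6) the peak lay within 1 kb of the 5′-most TSS, while in Lhx2, Pax6, Dlx1 and Otx1 it lay only at an internal TSS.

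**Figure D2:**
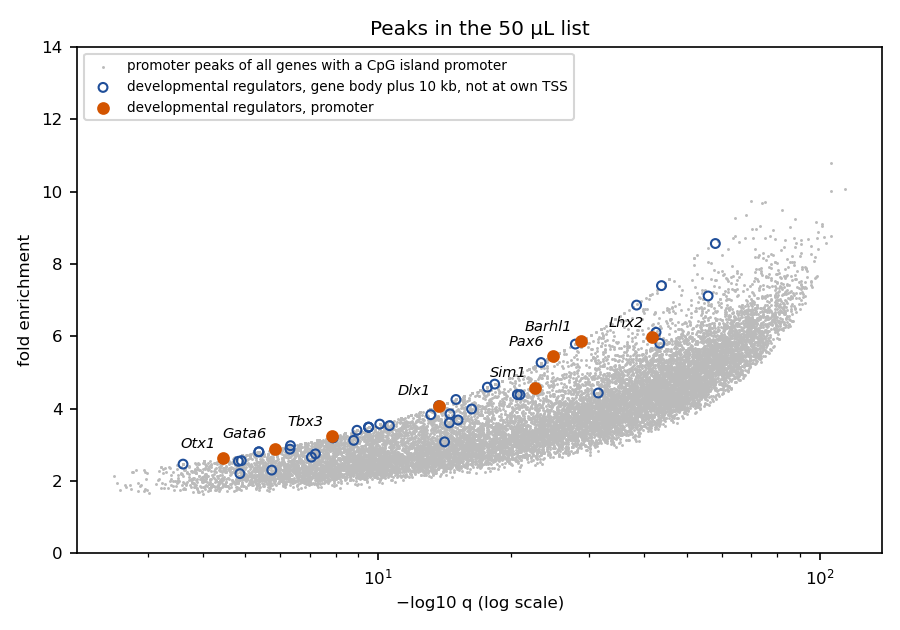
Fold enrichment (vertical axis) against −log10 q (horizontal axis, log scale) of peaks in the 50 µL list: promoter peaks of all genes with a CpG island promoter (grey), the 8 promoter peaks of developmental regulators (orange, named) and their other peaks in the gene body or within 10 kb (open blue circles). The orange points run from Otx1 at 2.64 to Lhx2 at 5.97 along the upper edge of the grey cloud. At a given −log10 q their fold enrichment is thus among the higher values. It is a ratio to the local background and does not give the number of reads.

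Sequence motifs were searched on both strands in the 201 bp around each summit. The SP/KLF motif GGGCGG, the GC box bound at many CpG island promoters, was in 2 of the 8 member promoter windows (Otx1 and Sim1) and in 37.3% of the windows of all genes with a CpG island promoter. The PU.1 motif GAGGAAGT, named for a factor of B cells and macrophages, was in 1 of the 8 and in 2.09% of all such windows. The ETS motif CCGGAAG (in 7.62% of all such windows), the NRF1 motif TGCGCATGC (1.24%), the CTCF core AGGGGGCGC (1.18%) and the octamer ATGCAAAT of POU2F factors (1.07%) were in none of the 8. With 8 windows these counts are a description only.

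The island sequence itself was mostly outside peaks. The 82 CpG islands at promoters of the set covered 106 kb, of which 0.218% lay in peaks without density gradient centrifugation and 2.86% in the 50 µL list. Over the 11364 islands at promoters of all genes these shares were 22.5% and 48.3%. A peak touched 1 of the 82 islands in the first list and 9 in the 50 µL list. In the first list that island belonged to Neurog2, a proneural gene, whose peak of fold enrichment 5.90 lay in its coding exon 1199 bp from the TSS. The islands of the set were long, with a median of 1529 bp for the longest island of a gene against 1112 bp over all genes with one, and CpG-rich, with a median of 108.5 CpG in the 2 kb around the 5′-most TSS against 95. The 8 genes with a promoter peak had a median of 99.5 CpG, 5.5 TSS and a gene length of 21.3 kb, and the 44 without had 111.5 CpG, 2 TSS and 6.38 kb. More TSS give a gene more windows in which a peak can count, and the part of this in the 8 genes was not tested.

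Among all protein-coding genes, the share with a promoter peak in the 50 µL list was 12.7% below 20 CpG, 77.7% between 60 and 80, and between 80.3% and 83.4% in every bin from 80 CpG up. The 13 genes of the set with 80 to 100 CpG had a share of 23.1% (3 genes, interval 5.04 to 53.8%), where all genes had 81.7%. The 10 with 120 to 140 CpG had 10% (1 gene, interval 0.253 to 44.5%), where all had 80.3%. None of the 9 genes with 160 CpG or more had a promoter peak, and these were Six2, Barhl2, En2, Irx1, Irx2, Neurog2, Nkx6-1, Sim2 and Sox2. Without density gradient centrifugation the share among all genes was highest at 80 to 100 CpG (70.3%) and lower from 160 to 180 (56.9%). By the length of the longest island, the share among all genes in that list was 67.7% at 500 to 1000 bp, 72.0% at 1000 to 1500 bp, 61.9% at 1500 to 2000 bp and 51.7% at 2000 to 3000 bp. The set had 9, 16, 14 and 10 genes in these bins, none of them with a promoter peak in that list. In the 50 µL list the shares among all genes were 79.7%, 84.7%, 81.8% and 76.2%, and 1, 2, 4 and 1 genes of the set had a promoter peak.

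**Figure D3:**
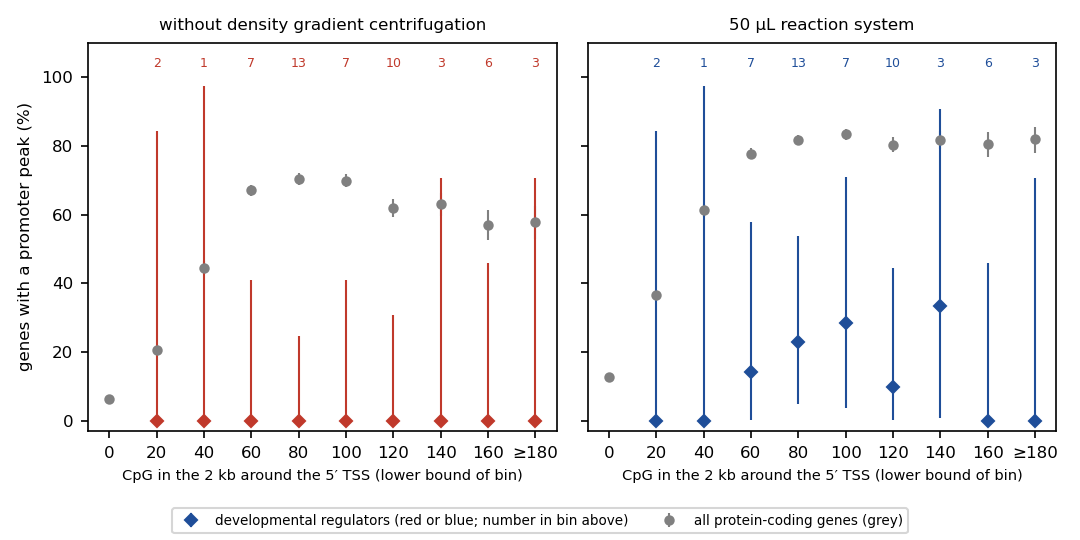
Share of genes with a promoter peak (vertical axis, percent) by the number of CpG in the 2 kb around the 5′-most TSS (horizontal axis, lower bound of each bin), for the library without density gradient centrifugation (left) and the 50 µL library (right). Diamonds are developmental regulators, with their number per bin at the top, grey points are all protein-coding genes, and lines are exact 95% binomial intervals. All diamonds in the left panel are at 0, and in the right panel none lies above 33.3%.

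In the gene body and the 10 kb on each side, 8 of the 52 genes had a peak without density gradient centrifugation (15.4%, interval 6.88 to 28.1%), against 61.2% of all protein-coding genes and 82.0% of those with a CpG island promoter. In the 50 µL list 22 did (42.3%, interval 28.7 to 56.8%), against 73.0% and 91.1%. The 8 genes of the first list (Dlx2, Gata4, Lhx1, Lhx2, Lhx9, Neurog2, Nkx2-2 and Pax7) were all among the 22, and 14 more had a peak in the 50 µL list only. Genes of the set are short, so the peaks were also counted per length: their 2.20 Mb held 4.55 and 21.8 peaks per Mb in the 2 lists, against 19.3 and 63.9 for genes with a CpG island promoter and 13.4 and 41.5 for genes without. The 10 peaks of the first list all overlapped a peak of the 50 µL list. Of the 48 peaks of the 50 µL list, 8 were the promoter peaks above, 9 overlapped a peak of the other list and 17 lay in introns.

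Among Pax genes, Pax7, the regulator of muscle satellite cells, had the most peaks, with 8 in the 50 µL list, all in introns. The strongest, at chr4:139743416-139744124 (fold enrichment 7.12, −log10 q 55.8), lay 89054 bp downstream of the nearest TSS and overlapped the Pax7 peak of the other list (3.99, −log10 q 3.99). A second strong Pax7 peak was at chr4:139813674-139814245 (6.11, −log10 q 42.6). The CpG island promoter of Pax7 itself had no peak in either list, with the nearest at 11102 bp from a TSS. Pax8, of thyroid and kidney, had 3 weak peaks downstream of the gene in the 50 µL list, and Pax2, of kidney and optic stalk, and Pax3, of neural crest and muscle precursors, had 1 each, all with a fold enrichment below 4. Pax1 and Pax9, which act in the sclerotome and pharyngeal pouches, had none.

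In the sine oculis homeobox family, Six3, of forebrain and eye, had a downstream peak at chr17:85633789-85634064 (5.28, −log10 q 23.4) in the 50 µL list only, and Six2 and Six6 had none. In the Lhx genes, 2 peaks that were strong in both lists lay at promoters of neighbours. The peak assigned to Lhx1, a gene of head and kidney formation, was within 1 kb of a TSS of Aatf, with 9.45 (−log10 q 28.9) without density gradient centrifugation and 4.43 (31.5) in the 50 µL list. The peak upstream of Lhx9, a gonad regulator, was within 1 kb of a TSS of 2310009B15Rik, with 7.11 (15.4) and 5.81 (43.4). These peaks are counted in the regions of Lhx1 and Lhx9 by position alone. Downstream of Lhx2 there was a peak in both lists, with 5.45 (8.63) and 3.49 (9.50). Lhx9 had 2 further weaker peaks in the gene in the 50 µL list, Lhx5 had 2 and Lhx6 had 1, while Lhx3 and Lhx8, of motor neurons and basal forebrain, had none.

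In the Dlx genes, the strongest peak of the set in the 50 µL list lay upstream of Dlx2, the partner of Dlx1 in forebrain interneurons. It was at chr2:71547923-71548280, with its nearer edge 1169 bp upstream of the TSS and its summit outside the CpG island, with 8.57 (−log10 q 58.0) in the 50 µL list and 6.12 (10.2) in the other. Its position fell just outside the 1 kb window, so Dlx2 is not among the genes with a promoter peak. Dlx5 and Dlx6, of jaw and limb, had none, and their nearest peaks were 73509 and 91796 bp away in the 50 µL list. In the next group, Otx1 had an upstream peak at chr11:22008024-22008689 (6.86, −log10 q 38.5), which was far stronger than the one at its promoter, and Barhl1 had a weak one upstream. The midbrain genes En1 and En2, the forebrain gene Otx2, the organizer gene Gsc and Barhl2 had none.

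Nkx2-2, of ventral neural tube and islets, had 2 adjoining intronic peaks without density gradient centrifugation, with 4.52 (−log10 q 5.41) and 5.58 (8.54), which a single 50 µL peak of 4.60 (17.7) overlapped. Nkx2-1, of thyroid, lung and ventral forebrain, and Nkx6-1, of beta cells and motor neuron progenitors, had none. Neurog2 had peaks in both lists at 2 places. The peak near 7.6 kb upstream, at chr3:127625352-127625842 in the 50 µL list, had 8.04 (19.6) in the first list and 3.69 (15.2) in the 50 µL list. The peak in the coding exon had 5.90 (9.83) and 4.39 (20.9). Its summits lay 1199 and 1270 bp from the TSS, which again put a CpG island peak just beyond the 1 kb window. Sim1 had 3 more weak intronic peaks in the 50 µL list, with a fold enrichment of at most 3.19. Sim2, the neurogenic Neurog1 and the oligodendrocyte genes Olig1 and Olig2 had none.

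Gata4, the heart and endoderm factor, had an intronic peak at chr14:63207295-63207559 (5.79, −log10 q 27.9) in the 50 µL list. It also had a downstream peak in both lists, with 7.18 (13.8) and 3.86 (14.5), and a downstream peak of 3.99 (16.3) at the promoter of Neil2, a DNA repair gene. Gata6 had 2 upstream peaks in the 50 µL list, of 4.25 and 2.88. The endoderm pioneer factors Foxa1 and Foxa2 had none. Neither had the neural progenitor genes Sox1 and Sox2, the cartilage and testis gene Sox9, the T-box genes Tbx5 (heart and forelimb) and Tbx15 (skeleton), the ligand Wnt3a, or Irx1, Irx2 and Irx3. Wnt1 had 3 peaks of 3.49 to 3.83 in the 50 µL list, 1 in a UTR exon and 2 downstream. In all, 30 of the 52 genes had no peak in their region in either list.

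**Figure D4:**
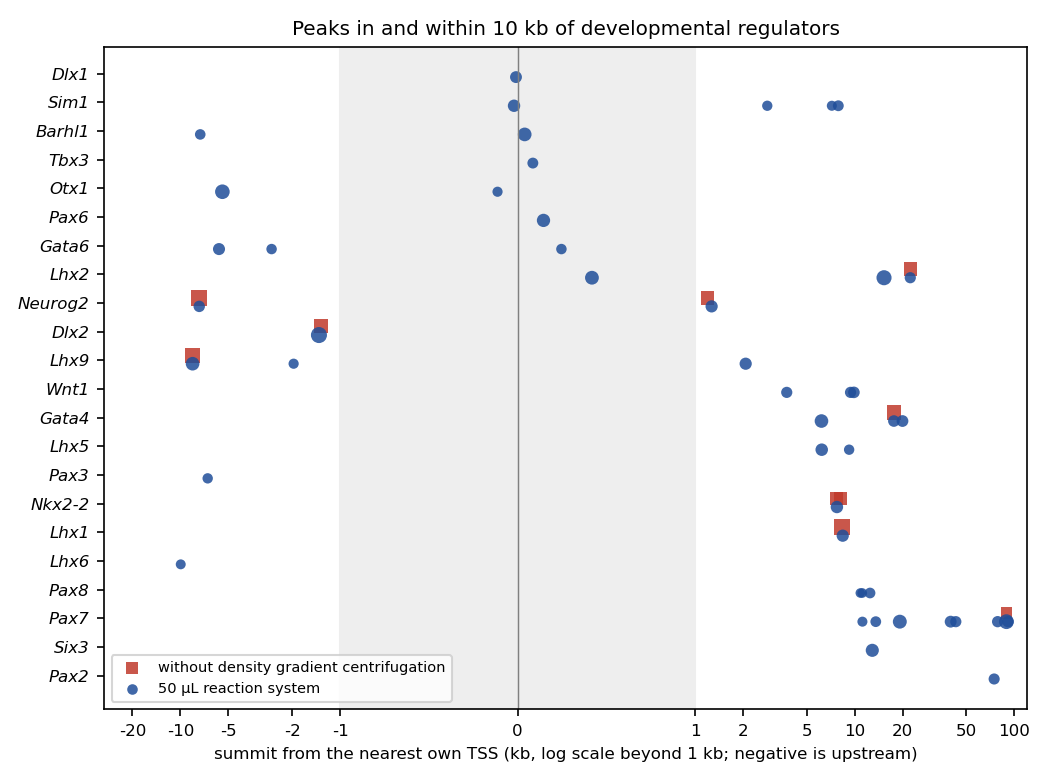
Position of peak summits from the nearest TSS of the gene itself (horizontal axis, kb, linear within 1 kb and log-scaled beyond, negative upstream) for the 22 developmental regulators with a peak in the gene body or within 10 kb. Red squares are the library without density gradient centrifugation, blue circles the 50 µL library, symbol area rises with fold enrichment, and the grey band marks 1 kb on each side of a TSS. No red square lies in the band, and Dlx2 and Neurog2 lie just outside it.

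Distance to the nearest peak showed how far some of these genes lay from any detected site. The median distance from a TSS of the set was 120 kb without density gradient centrifugation and 43.1 kb in the 50 µL list. For genes without a CpG island promoter the medians were 38.7 and 13.5 kb, and for all protein-coding genes 4.58 and 0.033 kb. The set lay farthest out at Irx1, whose nearest peaks were 1315346 and 1315331 bp away, followed in the 50 µL list by Irx2 at 695442 bp and Sox2, the pluripotency and neural stem cell factor, at 568714 bp. Within 10 kb of a TSS, 5 of 52 genes had a peak in the first list and 18 in the 50 µL list (9.62% and 34.6%). The shares were 55.8% and 68.7% of all protein-coding genes. They were 77.3% and 88.1% of genes with a CpG island promoter, and 31.3% and 46.7% of genes without one. Within 500 kb the set reached 92.3% and 94.2%, near the 92.2% and 94.3% of all protein-coding genes. Genes with a CpG island promoter reached 98.5% and 99.1% at that distance.

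**Figure D5:**
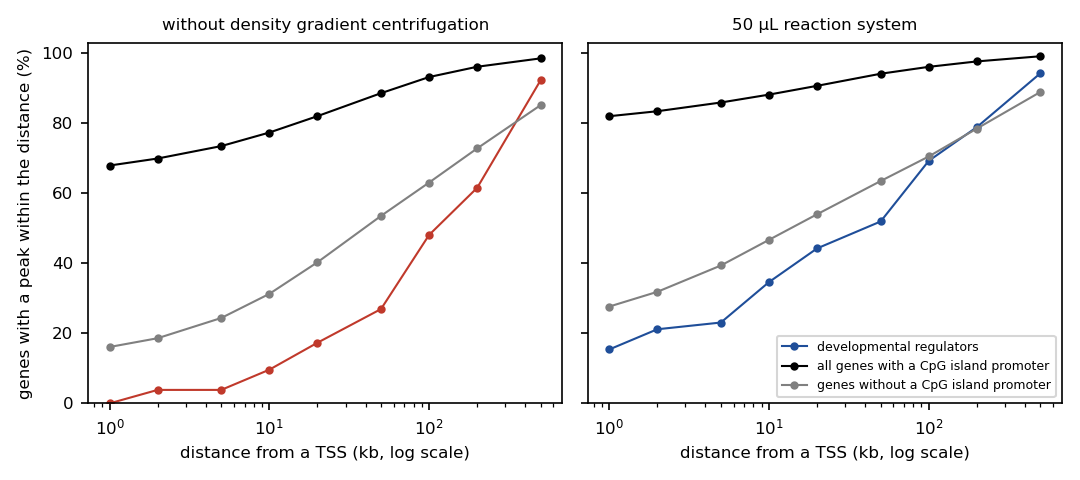
Share of genes with a peak within a given distance of a TSS (vertical axis, percent; horizontal axis, kb, log scale), for developmental regulators (red or blue), all genes with a CpG island promoter (black) and genes without one (grey), in the library without density gradient centrifugation (left) and the 50 µL library (right). At 10 kb the developmental regulators are at 9.62% and 34.6%, below the grey curves at 31.3% and 46.7%.

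Relatives of these genes that blood cells use were counted in the same way. Of the 7 listed, 5 had a promoter peak in the 50 µL list (71.4%, interval 29.0 to 96.3%) and 2 in the other (28.6%, interval 3.67 to 71.0%). Among all protein-coding genes the shares were 56.6% and 43.7%, and among those with a CpG island promoter 82.0% and 67.9%. Gata3, the T cell factor, had its most significant promoter peak at 4.21 (−log10 q 38.8) in the 50 µL list and at 6.35 (21.0) in the other. Sox4, of early lymphocytes, had 5.15 (56.9) and 3.94 (6.86). Pax5, the B cell identity factor, had 2.90 (24.95), Tbx21, of T helper and natural killer cells, 4.15 (27.8), and Gata1, the erythroid factor, 3.40 (8.94), each in the 50 µL list only. In the other list the Gata3 peak lay 968 bp from the nearest TSS, just inside the 1 kb window. The nearest Pax5 peak there lay 1026 bp from a TSS, just outside the window. Gata2, of blood stem cells and mast cells, and Eomes, of cytotoxic lymphocytes, had no promoter peak in either list, but each had a region peak in the 50 µL list. Within a family, some genes had a promoter peak in the 50 µL list and others had none: Pax5 and Pax6 had one and the other 6 Pax genes of the set did not, and Gata1, Gata3 and Gata6 had one and Gata2 and Gata4 did not. The share of the blood relatives in the 50 µL list lay between that of all protein-coding genes and that of genes with a CpG island promoter. In the other list it lay below both. The blood relatives and the 52 genes were both chosen with earlier results known, so the difference between their shares was not tested.

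Among regulators of spleen organ formation, Tlx1, which is needed to form the spleen, and Nkx2-5, Nkx2-3, Nkx3-2, Tcf21, Wt1 and Barx1 had no promoter peak in either list. All of these but Tcf21 and Wt1 had a region peak in the 50 µL list. Among all protein-coding genes 73.0% had a region peak in that list. A promoter peak was found in 56.6% of all protein-coding genes in the 50 µL list and in 43.7% in the other. With so few spleen organ genes, no difference from these shares was tested. Among 44 other paralogues of the set, 6 had a promoter peak in the 50 µL list (13.6%, interval 5.17 to 27.4%) and 1 in the other (2.27%, interval 0.0575 to 12.02%). The most significant were Six5 (5.41, −log10 q 50.5), Tbx19 (5.88, 34.3), Foxa3 (3.76, 24.6) and Sox8 (4.98, 23.7), and Foxa3, a liver factor, was the one with a peak in both lists. These shares were close to those of the 52 genes, with overlapping intervals.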

How the data were processed

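Peak lists of 2 libraries of FFPE mouse spleen were analysed. The authors mapped reads to mm10 with BWA, removed duplicates, called peaks for each library with MACS2 and removed blacklisted regions. The deposited lists give for each peak a fold enrichment (a ratio to the local background) and its −log10 p and −log10 q. The values were used as deposited, and the deposited display score, made from the −log10 q, was not used. Calling each library by itself makes a peak depend on that library's depth, which is unknown.

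Genes and TSS came from GENCODE vM21, genome sequence and promoters from RefSeq (GRCm38). Coordinates are 1-based. A promoter peak lay within 1000 bp of any TSS. Peak sets were compared by an overlap of at least 1 bp. Python 3.11.15, numpy 2.4.6, pandas 2.3.3 and scipy 1.17.1 were used. The counting was tested on simulated peaks for 4000 genes, where all 1200 planted promoter peaks were recovered. With 1 library per condition no test was made. The 52 genes and all lists were chosen with earlier results of these data known. Every gene of the set was named, with each promoter peak and the 10 most significant other peaks per list. Every blood cell gene and, except for a result not reported here, every spleen organ gene was named, and the 4 other paralogues with the most significant promoter peaks. Alternatives covered windows, flanks, thresholds, list length and TSS choice.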

Additional observations from a re-analysis of the deposited data

How the results depend on the processing

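The 8 genes of the set with a promoter peak in the 50 µL list became 5 at a fold enrichment of at least 4, 4 at the list length of the other library and 4 with the 5′-most TSS alone, and the same numbers held for its genes with a CpG island promoter. The 12 genes of the 3 lists of relatives and spleen regulators became 7 at a fold enrichment of at least 4. Without density gradient centrifugation the count of 0 became 2 with a 2 kb window, through Dlx2 and Neurog2. The 22 genes with a region peak in the 50 µL list became 11 at equal list length. The 8 of the other list became 3 in the gene body alone and 16 with 50 kb on each side. Leaving out promoter peaks within 1 kb of a TSS of another gene, an alternative chosen after seeing the data, left 6 of the 8. In total 39 values, this one among them, stayed within 1.5 times the reported count. No paired analysis was possible because there was 1 library per condition, and no replicate could be left out. Depth limits every statement that a peak was missing, and so does the lower quality the paper reports without density gradient centrifugation.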
